A study of Mus musculus with 2 samples.

Results

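Polycomb repressive complex 2 (PRC2) was described here by the RNA levels of 10 subunit genes, *Ezh1*, *Ezh2*, *Eed*, *Suz12*, *Jarid2*, *Mtf2*, *Phf1*, *Phf19*, *Rbbp4* and *Rbbp7*, in mouse ES cells and in the forebrain of E10.5 embryos. The genes were chosen by symbol. All 10 were found under a single identifier each among the 29311 genes listed for both samples. All 10 also passed the filter on low values, which asked that the RPKM reach 1 in ES cells or in forebrain. RPKM is the authors' name for the deposited values, which behave as reads per kb of exon and not relative to the read total (last section). A single read per kb was 1.221 in ES cells and 0.8191 in forebrain. The values are therefore not on the usual RPKM scale, and the filter was a low one, which 27384 of the 29311 genes passed. The ES cells are wild type cells of the E14 line, a single cell line, which were grown without feeders in serum and LIF. The forebrain is wild type tissue of B6CBAF1/J embryos, taken from single embryos according to the methods of the study, and is a dissected tissue of several cell types. Total RNA was depleted of rRNA, and a stranded library was sequenced from 1 sample of ES cells and 1 of forebrain, without replicates. For ES cells about 42800000 reads on genes were inferred from the values, and for forebrain about 59800000. The study used both samples to compare inactive *Hox* clusters that carry PRC2's histone mark together with an active mark (ES cells) or alone (forebrain).

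PRC2 places methyl groups on lysine 27 of histone H3 (H3K27), the mark of genes held silent by the Polycomb system, such as *Hox* genes before their activation. Its catalytic subunit is either EZH2 or its paralog EZH1, which is active only together with EED, a reader of the mark itself, and SUZ12, the scaffold. RBBP4 and RBBP7 are histone-binding proteins that PRC2 shares with other chromatin complexes. Accessory subunits divide PRC2 into 2 forms, one with a Polycomb-like protein (PHF1, MTF2 or PHF19), which bind DNA rich in CG dinucleotides, and the other with JARID2 and AEBP2.

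The paralogs had to be told apart by their reads, and the sequences that matter for this are therefore given first. The coding sequences of *Ezh1* and *Ezh2* were 66.0% identical over 2178 aligned bases, and the longest identical run was 17 bases. The most alike stretch of 100 bases, the read length given in the labels, still held 14 differences, shown in capitals (NCBIM37 coding transcripts, 5′ to 3′, coding bases 1984 to 2083 of *Ezh1* and 1972 to 2071 of *Ezh2*).
Ezh1: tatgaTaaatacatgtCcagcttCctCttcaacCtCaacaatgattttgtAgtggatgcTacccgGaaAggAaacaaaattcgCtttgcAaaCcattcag
Ezh2: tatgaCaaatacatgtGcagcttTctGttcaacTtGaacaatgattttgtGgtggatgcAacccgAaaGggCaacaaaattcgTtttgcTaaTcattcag

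*Rbbp4* and *Rbbp7* were 78.1% identical over 1275 coding bases. Their longest identical run was 20 bases, and the most alike 100 bases held 12 differences, in capitals (coding bases 1100 to 1199 and 1097 to 1196).
Rbbp4: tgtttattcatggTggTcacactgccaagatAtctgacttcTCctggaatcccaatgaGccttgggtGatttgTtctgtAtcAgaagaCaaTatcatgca
Rbbp7: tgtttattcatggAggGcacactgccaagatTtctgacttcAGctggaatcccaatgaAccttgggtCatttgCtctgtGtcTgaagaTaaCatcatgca

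Among *Phf1*, *Mtf2* and *Phf19*, identity was 51.6 to 55.2% with runs of at most 17 bases. Identical runs in the coding sequence were thus far shorter than a read in each of these families. *Rbbp7*, however, has a near-identical copy in the tables. The pseudogene *Gm6382* (X chromosome, chrX:138645427-138646368, NCBIM37) matches the *Rbbp7* transcript over 942 bases at 97.1% identity, with 27 differences and an identical run of 139 bases. Even the 100 bases that differ most hold only 7 differences, in capitals (bases 643 to 742 of the *Rbbp7* transcript and 17 to 116 of the copy).
Rbbp7: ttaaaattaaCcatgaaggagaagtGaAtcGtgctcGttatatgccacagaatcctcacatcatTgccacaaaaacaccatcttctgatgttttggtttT
Gm6382: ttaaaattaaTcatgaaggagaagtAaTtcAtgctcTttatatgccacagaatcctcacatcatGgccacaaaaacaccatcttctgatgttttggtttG

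*Gm6382* had an RPKM of 15233.41 in ES cells and of 7088.78 in forebrain, 2.45 and 2.6 times the value of *Rbbp7* itself. In inferred reads it was lower, with 11754 compared with 14815 in ES cells and 8153 compared with 9676 in forebrain. The RPKM is higher because its exons sum to 942 bases and those of *Rbbp7* to 2909. How the counting shared reads between both entries is not stated, and the level of *Rbbp7* is uncertain for this reason. For the other 9 genes, no listed pseudogene matched at 90% identity or more over at least 100 bases.

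The promoters of *Ezh1* and *Ezh2*, the catalytic paralogs that differed in opposite directions between the samples (below), are shown from 250 bases before to 50 after the start of transcription (RefSeq, GRCm38.p6, strand of the gene). They were searched on both strands for the E2F motifs TTTCCCGC, TTTCGCGC, TTTGCCGC and TTTGGCGC, in capitals, since E2F factors drive genes of the cell cycle.
Ezh1, chr11:101226414-101226713, minus strand: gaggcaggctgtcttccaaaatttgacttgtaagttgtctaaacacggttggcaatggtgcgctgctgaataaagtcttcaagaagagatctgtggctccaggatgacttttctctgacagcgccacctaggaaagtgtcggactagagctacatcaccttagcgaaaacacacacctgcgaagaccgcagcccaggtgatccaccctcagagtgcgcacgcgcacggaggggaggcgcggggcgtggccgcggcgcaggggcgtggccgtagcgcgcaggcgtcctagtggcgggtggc
Ezh2, chr6:47594981-47595280, minus strand: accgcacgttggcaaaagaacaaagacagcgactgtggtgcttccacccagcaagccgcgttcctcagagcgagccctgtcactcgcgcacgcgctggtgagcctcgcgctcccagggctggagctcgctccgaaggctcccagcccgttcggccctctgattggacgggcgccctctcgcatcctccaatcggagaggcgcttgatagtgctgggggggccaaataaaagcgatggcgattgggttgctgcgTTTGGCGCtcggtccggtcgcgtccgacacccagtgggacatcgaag

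The *Ezh2* window held a single match and the *Ezh1* window none. Of the 12 windows listed for the 10 genes, 3 held a match (*Ezh2*, *Suz12* and *Phf19*), compared with 2.26% of 32851 windows of the same length. These shares are not comparable, since each motif contains CG, and the windows of the subunit genes were rich in it. The window with the most CG dinucleotides of each gene held 17 to 41, compared with a median of 7 over all windows. The 3 genes with a match did not share a direction. *Ezh2* was called higher in forebrain, *Suz12* higher in ES cells, and *Phf19* was not called (below). A match describes the letters only.

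The level of each subunit is given as the RPKM deposited by the authors, with an exact Poisson 95% interval on the reads inferred behind it, which covers the counting of reads and not the variation between samples. Differences are log2((RPKM in ES cells + 1)/(RPKM in forebrain + 1)), and folds and their exact 95% intervals are on the RPKM without the pseudocount. With 1 sample per cell type no test was made, and a gene was called different at 2-fold or more on the log2 scale. In tissue RNA, a lower level in each cell and a smaller number of expressing cells cannot be told apart.

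Of the 10 subunit genes, 6 were at least 2-fold higher in ES cells (*Eed*, *Mtf2*, *Ezh1*, *Jarid2*, *Rbbp7* and *Suz12*). *Ezh2* alone was at least 2-fold higher in forebrain, and *Rbbp4*, *Phf1* and *Phf19* differed by less. Over the 27384 genes that passed the filter, 24.9% were called higher in ES cells and 27.6% higher in forebrain. For the 18236 protein-coding genes among them, the shares were 20.3% and 30.0%. Of these genes, 12.1% had a higher log2 difference than *Mtf2*, 13.5% than *Ezh1*, 13.7% than *Jarid2*, 17.2% than *Rbbp7* and 19.6% than *Suz12*. The median log2 difference was 1.11 for the 10 subunit genes and -0.18 for protein-coding genes. Relative to the latter, the same 7 genes remained past 2-fold, with *Ezh2* at -1.04 and *Suz12* at 1.22. Of all calls, 47.5% were higher in ES cells, compared with 63.3% when each sample was divided by its median RPKM over protein-coding genes, which moved the median of all genes by 0.53 on the log2 scale.

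**Figure D1:**
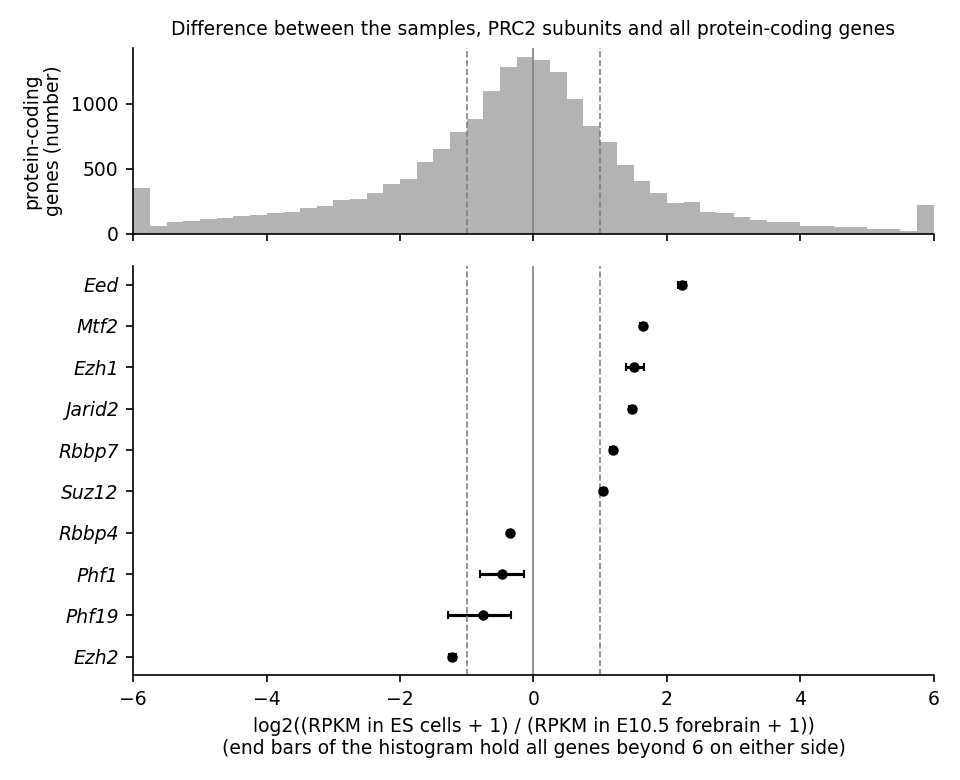
Log2 difference between the samples (x axis, higher in ES cells to the right) for all protein-coding genes that passed the filter (upper panel, number of genes) and for the 10 PRC2 subunit genes (lower panel). Points are the log2 difference with a pseudocount of 1, and dashed lines mark 2-fold. Bars are exact 95% intervals on inferred reads for the ratio without the pseudocount. *Eed* lies farthest to the right at 2.22 and *Ezh2* farthest to the left at -1.22.

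The catalytic subunits differed in opposite directions. *Ezh2* (ENSMUSG00000029687, chromosome 6, 47480273 to 47545340, minus strand, NCBIM37) had an RPKM of 668.16 in ES cells (645.9 to 691.1, 3392 reads) and of 1553.62 in forebrain (1526 to 1582, 11754 reads). It was thus 2.33-fold higher in forebrain (2.24 to 2.42), although it was not called after division by the protein-coding median (-0.66 on the log2 scale). A larger log2 difference towards forebrain was found for 26.2% of protein-coding genes. *Ezh1* (ENSMUSG00000006920, chromosome 11, 101052429 to 101087777, minus strand), which is known as the catalytic subunit of tissues that divide little, had 235.61 in ES cells (223.6 to 248.1, 1436 reads) and 82.35 in forebrain (76.55 to 88.47, 748 reads). It was 2.86-fold higher in ES cells (2.62 to 3.13). Among protein-coding genes, *Ezh2* moved from percentile 79.3 in ES cells to 92.0 in forebrain, whereas *Ezh1* moved from 61.4 to 40.9.

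Within a sample, the share of each paralog does not depend on the scaling between samples. *Ezh1* made up 26.1% of the summed RPKM of *Ezh1* and *Ezh2* in ES cells (exact binomial 95% interval on inferred reads, 24.9 to 27.3%). In E10.5 forebrain it made up 5.03% (4.69 to 5.4%). *Ezh2* was the more abundant RNA in both samples, by 2.84 times in ES cells and by 18.9 times in forebrain. The shares depend on the length used for each gene, since all annotated exons sum to 7440 bases for *Ezh1* and 6197 for *Ezh2*, of which the longest transcript covers only 56.5% and 42.8%. With the length of the longest transcript the shares of *Ezh1* were 21.1% and 3.86%.

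**Figure D2:**
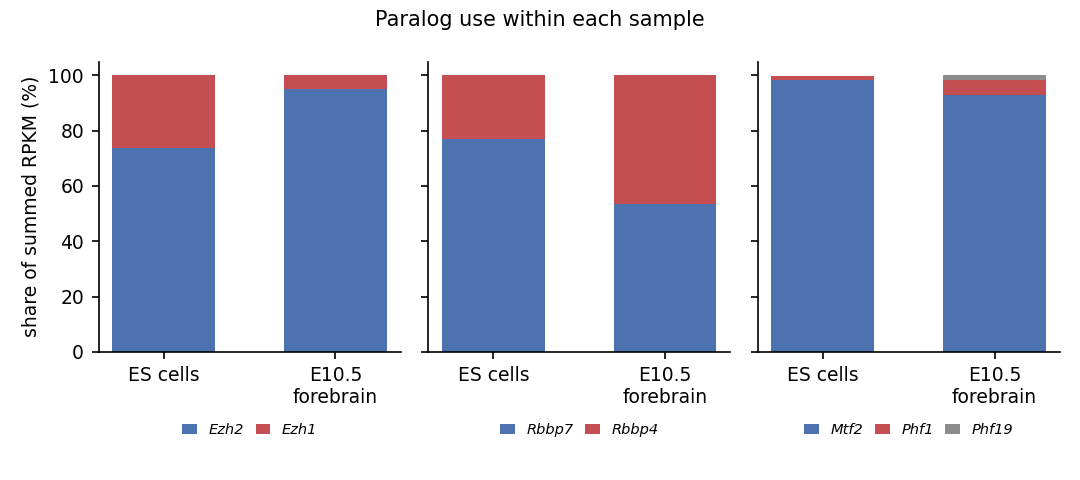
Share of the summed RPKM (y axis, percent) held by each paralog in ES cells and in forebrain, for *Ezh1* and *Ezh2* (left), *Rbbp4* and *Rbbp7* (middle) and the Polycomb-like genes (right), with 1 sample per bar. *Ezh1* holds 26.1% in ES cells and 5.03% in forebrain, *Rbbp7* holds 76.9% and 53.4%, and *Mtf2* holds 98.3% and 92.9%.

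*Eed* and *Suz12*, the core subunits on which the catalytic activity depends, were both higher in ES cells. *Eed* (ENSMUSG00000030619, chromosome 7, 97103166 to 97129493, minus strand) had an RPKM of 5573.99 in ES cells (5466 to 5684, 10127 reads) and of 1195.58 in forebrain (1155 to 1238, 3238 reads). At 4.66-fold (4.48 to 4.85), it was the subunit gene with the largest difference, and 8.49% of protein-coding genes had a larger log2 difference in this direction. *Suz12* (ENSMUSG00000017548, chromosome 11, 79806608 to 79847625, plus strand) had 1949.09 in ES cells (1906 to 1993, 7895 reads) and 948.29 in forebrain (923.9 to 973.2, 5725 reads). Its difference was 2.06-fold (1.99 to 2.13), close to the limit of 2-fold, and it was not called after division by the sum of values (0.77 on the log2 scale) or by the inferred read total (0.91).

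The level of the catalytic genes relative to each other core gene was higher in forebrain, to differing extents. The summed RPKM of *Ezh1* and *Ezh2* was 0.162 times that of *Eed* in ES cells and 1.37 times in forebrain, 8.44-fold apart (8.01 to 8.89, 95% interval for counting error). Relative to *Suz12* it was 0.464 and 1.73 times, 3.72-fold apart (3.55 to 3.9). Relative to *Rbbp7* it was 0.145 and 0.601 times, 4.13-fold apart (3.96 to 4.31). Relative to *Rbbp4*, the difference was smaller, with 0.485 and 0.689 times, 1.42-fold apart (1.37 to 1.48). For a pair of single genes, the length used cancels between the samples, and *Ezh2* over *Eed* was 10.8-fold higher in forebrain (10.3 to 11.5). With the longest transcripts as length, *Ezh1* plus *Ezh2* over *Suz12* was 0.897 in ES cells and 3.52 in forebrain. The order within ES cells, with *Ezh2* below *Suz12* and *Eed*, was the same with both lengths.

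**Figure D3:**
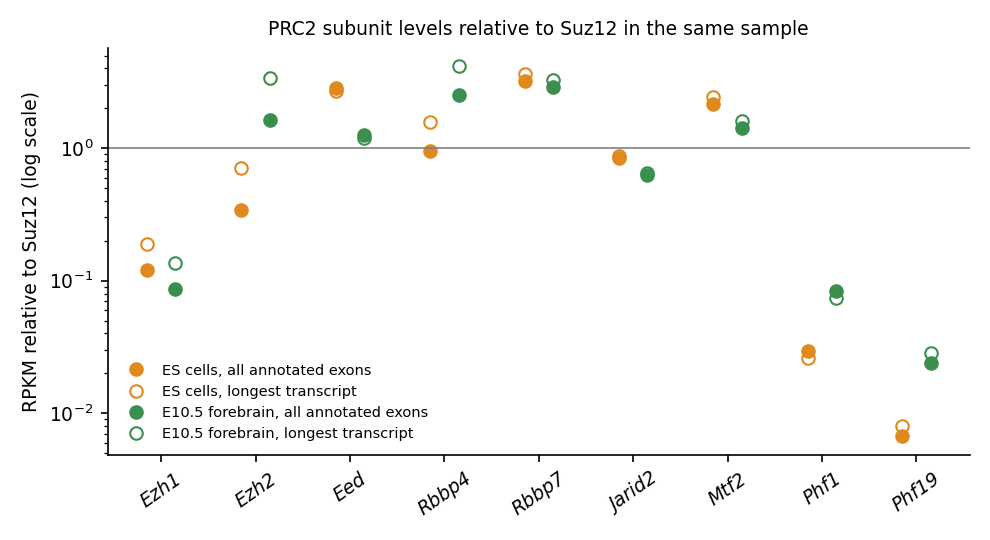
RPKM of 9 subunit genes divided by that of *Suz12* in the same sample (y axis, log scale), for both samples, with 1 sample each. Filled points use all annotated exons as length, open points the longest transcript, and the line at 1 marks the level of *Suz12*. *Ezh2* lies below the line in ES cells and above it in forebrain with both lengths, whereas *Jarid2* lies below it and *Mtf2* above it in both samples.

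*Rbbp4* (ENSMUSG00000057236, chromosome 4, 128984344 to 129012614, minus strand) differed little between the samples. Its RPKM was 1862.61 in ES cells (1831 to 1895, 13341 reads) and 2374.21 in forebrain (2345 to 2404, 25345 reads), 1.27-fold higher in forebrain (1.25 to 1.3). The direction turned after division by the protein-coding median (0.2 on the log2 scale, compared with -0.35). *Rbbp7* (ENSMUSG00000031353, chromosome X, 159198334 to 159217024, plus strand) had 6217.37 in ES cells (6118 to 6318, 14815 reads) and 2724.34 in forebrain (2670 to 2779, 9676 reads), a difference of 2.28-fold (2.22 to 2.34). With the reads of its copy *Gm6382* added, the difference was 2.22-fold. After division by the sum of values it was not called (0.92 on the log2 scale). The 677 protein-coding genes of the X chromosome had a median log2 difference of -0.46, compared with 1.19 for *Rbbp7*. The part of the X chromosome in the level of *Rbbp7* was not tested.

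*Rbbp7* made up 76.9% of the summed RPKM of *Rbbp4* and *Rbbp7* in ES cells (76.5 to 77.4%) and 53.4% in forebrain (52.8 to 54.0%). The share was lower in forebrain with every length tried, but which paralog is the more abundant in forebrain was not settled. With the longest transcript as length, *Rbbp7* held 69.8% in ES cells and 44.2% in forebrain, and with the reads of *Gm6382* added it held 85.7% and 67.9%. A lincRNA on the opposite strand, *Gm17525*, shares 796 exonic bases with *Rbbp4*, or 9.1% of its exons, and had nearly the same RPKM (1976.05 and 2526.83). Whether the counting used the strand is not stated, so that reads of both cannot be told apart in this stretch. *Rbbp4* also shares 8.94% of its exonic bases with *Sync*. The other subunit genes shared at most 7.51% of their exonic bases with a gene on the opposite strand.

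The accessory subunits *Mtf2* and *Jarid2*, which stand for different forms of PRC2, were both higher in ES cells. *Mtf2* (ENSMUSG00000029267, chromosome 5, 108494693 to 108538023, plus strand) had an RPKM of 4164.47 in ES cells (4104 to 4226, 17953 reads) and of 1335.09 in forebrain (1307 to 1364, 8579 reads), 3.12-fold apart (3.04 to 3.2). *Jarid2* (ENSMUSG00000038518, chromosome 13, 44824843 to 45017012, plus strand), a JmjC family protein without demethylase activity that recruits PRC2, had 1656.17 (1628 to 1685, 13179 reads) and 596.09 (582.3 to 610.1, 7070 reads), respectively, 2.78-fold apart (2.7 to 2.86). The ratio of *Mtf2* to *Jarid2* differed little, with 2.51 in ES cells and 2.24 in forebrain, 1.12-fold apart (1.08 to 1.17). Relative to *Suz12*, *Mtf2* was 1.52-fold (1.45 to 1.58) and *Jarid2* 1.35-fold (1.29 to 1.41) higher in ES cells.

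The other Polycomb-like genes were the lowest subunit genes in both samples. *Phf1* (ENSMUSG00000024193, chromosome 17, 27070072 to 27074835, plus strand) had an RPKM of 57.05 in ES cells (47.26 to 68.83, 114 reads) and of 79.24 in forebrain (69.44 to 90.05, 235 reads), 1.39-fold higher in forebrain (1.1 to 1.75). Its direction also turned after division by the protein-coding median (0.08 on the log2 scale, compared with -0.47). *Phf19* (ENSMUSG00000026873, chromosome 2, 34749277 to 34769546, minus strand) had 13.09 (9.834 to 17.08, 54 reads) and 22.77 (19.15 to 26.87, 140 reads), 1.74-fold higher in forebrain (1.26 to 2.43). Neither reached 2-fold on the log2 scale, and the interval of *Phf19* extends past it. *Mtf2* held 98.3% of the summed RPKM of the 3 Polycomb-like genes in ES cells and 92.9% in forebrain. The share of *Phf1* was 1.35% (1.11 to 1.62%) in ES cells and 5.51% (4.86 to 6.23%) in forebrain, and that of *Phf19* was 0.309% (0.232 to 0.403%) and 1.58% (1.33 to 1.87%).

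Ordered by RPKM, the subunit genes of ES cells ran from *Rbbp7* through *Eed*, *Mtf2*, *Suz12*, *Rbbp4*, *Jarid2*, *Ezh2*, *Ezh1* and *Phf1* to *Phf19*, over a 475-fold range. In E10.5 forebrain the order was *Rbbp7*, *Rbbp4*, *Ezh2*, *Mtf2*, *Eed*, *Suz12*, *Jarid2*, *Ezh1*, *Phf1* and *Phf19*, over a 120-fold range. *Ezh2* thus stood 7th in ES cells and 3rd in forebrain, while *Eed* stood 2nd and 5th. Neighbours in these orders had intervals that did not overlap, except *Ezh1* and *Phf1* in forebrain. With the longest transcript as length, *Rbbp4* passed *Suz12* in ES cells, and *Rbbp4* and *Ezh2* passed *Rbbp7* in forebrain. Compared with the median RPKM of protein-coding genes, 108 in ES cells and 158 in forebrain, *Phf1* and *Phf19* lay below it in both samples and *Ezh1* in forebrain.

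**Figure D4:**
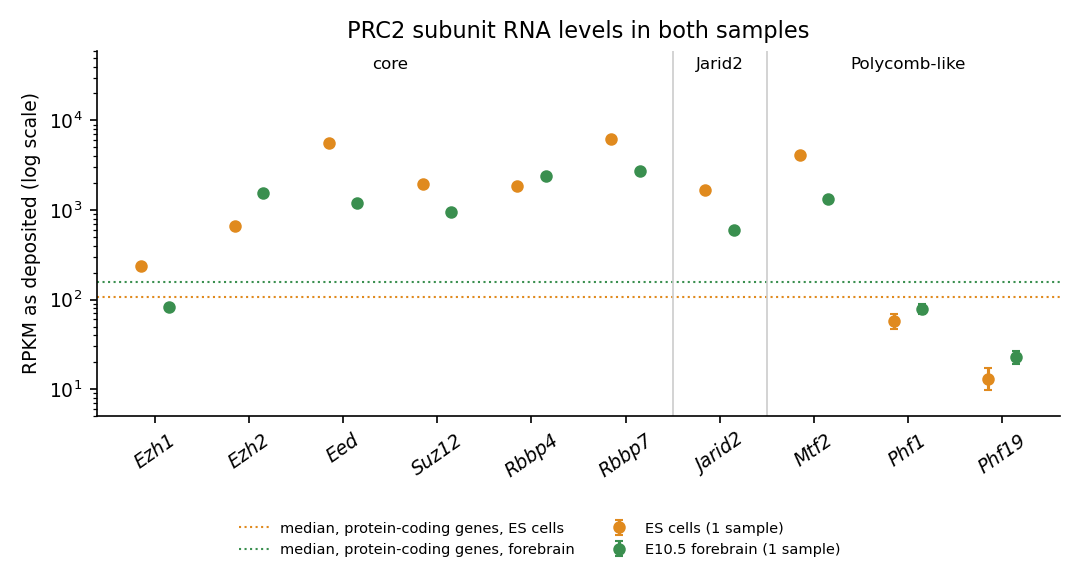
RPKM as deposited (y axis, log scale) of the 10 PRC2 subunit genes in ES cells and E10.5 forebrain, 1 sample each. Bars are exact Poisson 95% intervals on inferred reads, most of them smaller than the points, and dotted lines mark the median of protein-coding genes. The forebrain point is above the ES cell point for *Ezh2*, *Rbbp4*, *Phf1* and *Phf19*, and below it for the other 6 genes, although *Rbbp4* and *Phf1* turn after division by the protein-coding median.

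The further PRC2 genes were mixed in direction. Of 5 genes, 1 was at least 2-fold higher in ES cells, 2 in forebrain and 2 differed by less (median log2 difference -0.63). Among protein-coding genes, 20.3% were called higher in ES cells and 30.0% in forebrain. The counts of 1 and 2 among 5 genes lie near these shares. *E130012A19Rik*, which codes for the accessory subunit EPOP, had an RPKM of 1324.36 in ES cells and of 200.19 in forebrain, a log2 difference of 2.72. *2810030E01Rik* (*Skida1*), at the other end, had 46.58 and 739.04, a log2 difference of -3.96. *Aebp2*, the partner of *Jarid2*, had 382.82 and 282.2, so that *Jarid2* held 81.2% of their summed RPKM in ES cells and 67.9% in forebrain. Of the H3K27 demethylase genes, which remove the mark, *Kdm6a* had 492.66 and 636.03 (log2 difference -0.37), and *Kdm6b* had 28.7 and 112.13 (-1.93).

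PRC1 is another Polycomb complex, and its forms with a CBX protein bind the mark placed by PRC2. Of 19 genes, 3 were at least 2-fold higher in ES cells, 7 in forebrain and 9 differed by less, with a median log2 difference of -0.43. These shares are near those of protein-coding genes, of which 20.3% were called higher in ES cells and 30.0% in forebrain. *Cbx7*, which codes for the reader of the mark known from ES cells, had an RPKM of 1026.62 in ES cells and of 23.12 in forebrain (5.41 on the log2 scale). *Cbx8*, another reader, had 13.62 and 188.56 (-3.7). Of the genes of other complexes that contain RBBP4 or RBBP7, 15 of 17 were within 2-fold, as were 49.7% of protein-coding genes, and their median was -0.02. Among them, *Hat1*, a histone acetyltransferase that works with RBBP7, was highest at 1.52 (9756.55 and 3403.34), and *Mta1* was lowest at -1.81 (231.47 and 813.15).

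Since *Ezh2* is known to be abundant in dividing cells, genes of replication and proliferation were read beside it. Of 12 such genes, 11 were within 2-fold, as were 49.7% of protein-coding genes. The median log2 difference of the 12 genes was 0.32, slightly towards ES cells, compared with -0.18 for protein-coding genes. *Mcm3* lay at 0.81 (7609.71 in ES cells and 4326.17 in forebrain) and *Mki67* at -1.7 (759.75 and 2473.99). *Mki67* was the member of this list that, as *Ezh2*, was at least 2-fold higher in forebrain. The part of proliferation in the level of *Ezh2* was not tested.

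The labels were checked by marker genes. All 8 ES cell markers were at least 2-fold higher in ES cells, with a summed RPKM of 47100 compared with 2762 in forebrain, of which *Sox2*, also a neural gene, made 2602.06. Of 9 forebrain markers, 8 were listed and all 8 were higher in forebrain (summed RPKM 285.8 in ES cells and 10240 in forebrain), with *Lhx2* at 0 in ES cells. Markers of other cells were found as well. All 6 blood markers, all 5 mesenchyme markers and 4 of 5 endothelium markers were higher in forebrain, at summed RPKM of 799100, 16320 and 1895, compared with 373.2, 55.79 and 603.2 in ES cells. The 4 globin genes took 1.1% of the inferred reads of forebrain. Of 7 neuronal markers, 6 were higher in forebrain and *Stmn2* was higher in ES cells (6910.29 and 1056.31). Of 7 genes of early differentiation, 3 were higher in ES cells and 4 in forebrain (*Gata6*, *Sox17*, *Sox7* and *Foxa2*), with a median log2 difference of -1.56. In ES cells, *T* had an RPKM of 1112.09 and the other 6 genes 1.11 to 9.05. The part of these cells in the levels of the subunit genes was not tested.

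With only 2 samples, likeness between genes means nearness in both levels. Of 18236 protein-coding genes, those nearest to *Ezh2* in the plane of log2(RPKM + 1) of both samples were *Nt5c*, *Tbpl1* and *Carhsp1*, at distances of 0.05 to 0.07. Nearest to *Ezh1* were *Il12rb2*, *5730507C01Rik* and *Usp53* (0.03 to 0.06), and nearest to *Jarid2* were *Fam166a*, *Tgif1* and *Bex4* (0.03 each).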

How the data were processed

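RNA-seq of 1 ES cell sample and 1 E10.5 forebrain sample was analysed. Per the labels and the study's methods, the authors mapped single-end reads (100 bp in the labels, a shorter length in the methods) to NCBIM37 (mm9) with the HTSstation pipeline. The submitters' processing notes name Bowtie 0.12.7. They deposited an RPKM per gene, which was used without further scaling. The handling of strand, of overlapping genes and of multiply mapped reads is not given in the sources used here.

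RPKM multiplied by exonic length (union of exons, Ensembl 65 annotation of the same build, all 29311 genes with the same coordinates) came in steps of 1.221 per kb in ES cells and 0.8191 in forebrain, taken as 1 read. Of low values, 69.7% and 70.7% lay within 0.1 of a whole read, where 20% would by chance. Reads were rounded for exact Poisson and binomial 95% intervals, which cover counting error only. The interval of a ratio of ratios is a normal approximation on the log scale. The RPKM minimum was 1, the pseudocount 1 and the limit 2-fold. The read step and the 2-fold calls were tried on simulated data that held counting error only and known changes well past the limit. Such data cannot show how the calls fare with variation between samples or for genes near 2-fold.

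The 10 genes, the lists and the rule for named genes were chosen with earlier results of these data known. Named were all members, the genes with the highest and lowest difference of each pathway list, the 3 nearest genes of *Ezh2*, *Ezh1* and *Jarid2*, and near-identical copies. *Aebp2*, *Gm17525*, *Sync* and single marker genes were named after their values were seen. Copies were searched with blastn 2.17.0 and coding sequences aligned with MAFFT 7.526. Calculations used scipy 1.17.1 and numpy 2.4.6 under Python 3.11.15, with tables read by pandas 2.3.3 and plots drawn by matplotlib 3.10.9.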

Additional observations from a re-analysis of the deposited data

How the results depend on the processing

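With 1 sample per cell type, no replicate could be left out, and depth limits only *Phf1* and *Phf19*, with 54 to 235 reads. No paired analysis was possible because each cell type has 1 sample. Of 139 values recomputed with another setting, 75 moved by less than their counting interval (counts of genes by at most 1.5 times, medians by at most 0.1), 64 moved by more, and none turned the direction of a called gene. *Phf1* (-0.74 to 0.08) and *Rbbp4* (-0.62 to 0.2), which were not called, changed sign. Pseudocounts of 0.1 and 5 changed no call of a subunit gene. Leaving out the RPKM minimum adds only genes that cannot reach 2-fold with a pseudocount of 1.

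The number of subunit genes higher in forebrain was 2 with division by the sum of values (*Ezh2* and *Phf19*) and with a limit of 1.5-fold. Among all genes that passed the filter, 31.9% and 35.1% were higher in forebrain in these settings. The number was 0 with division by the protein-coding median and with a limit of 4-fold, compared with 21.2% and 15.4% of all genes. At 4-fold, 1 subunit gene (*Eed*) was higher in ES cells, as were 12.1% of all genes. *Suz12* was not called with division by the sum of values or by the inferred read total, nor *Rbbp7* with the former. The median log2 difference of the subunit genes was 0.84, 1.67 and 0.98 with division by the sum, by the protein-coding median and by the inferred read total. These scalings moved the median of all genes by -0.26, 0.53 and -0.02. With the inferred read total, the values are much smaller relative to the pseudocount of 1, which draws differences towards 0. The last shift therefore does not show the scaling alone. Of all calls, 47.5% were higher in ES cells, but 63.3% with division by the protein-coding median. Genes higher in ES cells and in forebrain numbered 2394 and 3370 with the inferred read total (6829 and 7559 as deposited), where the pseudocount weighs more, and 3324 and 4222 at 4-fold. Of protein-coding genes, 3702 were higher in ES cells.

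The shares moved with length. Without division by length, *Ezh1* held 29.7% in ES cells and 5.98% in forebrain, *Rbbp7* 52.6% and 27.6%, *Phf1* 0.626% and 2.62%, and *Mtf2* 99.1% and 95.8%. With the longest transcript as length, chosen after seeing the data, they held 21.1% and 3.86%, 69.8% and 44.2%, 1.04% and 4.31%, and 98.6% and 94.0%. With the reads of *Gm6382* added, also chosen after seeing the data, *Rbbp7* held 85.7% and 67.9%. In each of these settings, the difference between the samples kept its direction.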

Other observations

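The reads behind 1 unit of RPKM show how the samples were scaled. The product of the steps for 1 read in ES cells and in forebrain, 1.221 and 0.8191, was 1, and the median log2 ratio of the 24344 genes above 0 in both samples was 0. The values therefore behave as reads per kb centred on the median ratio between both samples, rather than as reads per kb relative to the read total. Protein-coding genes had a median log2 difference of -0.18 on this scale.

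The pseudogene *Gm6382* and its parent *Rbbp7* had log2 differences of 1.1 and 1.19 between the samples. Of 893 windows of 50 bases in their alignment, 206 (23.1%) were identical and 762 (85.3%) held at most 2 differences.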
